A study of Oryza sativa Japonica Group with 8 samples.

Results

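The genes described here are annotated as encoding 30S or 50S ribosomal proteins, the subunits of ribosomes in rice organelles. They were chosen as all genes of the deposited table whose description contains "30S ribosomal protein" or "50S ribosomal protein", in any letter case, which gave 60 of 37869 genes. The descriptions put 17 of them in the small 30S subunit and 43 in the large 50S subunit. They name the chloroplast, plastid or cyanelle in 24 cases and the mitochondrion in 1 case, and name no compartment in the other 35. For those 35, among them L24e (Os01g0514000), a place in an organelle rests on the words 30S or 50S alone. No value measured in these libraries entered the choice.

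Chloroplasts and mitochondria carry ribosomes of the bacterial kind, which differ from the 40S and 60S ribosomes of the plant cytosol. The plastid ribosome translates the plastid genome, which encodes core photosystem subunits and the large subunit of Rubisco, so leaf greening depends on it. Most of its proteins are encoded in the nucleus, made in the cytosol and imported, and in rice the loss of plastid L12, L13 or L21 has been linked to albino or pale leaves.

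Leaf mRNA was sequenced from rice (Oryza sativa) in 4 groups of 2 libraries each, from plants grown in soil for 4 weeks without a stress treatment, an age that the labels and methods give and that a figure legend of the study puts lower. OsGRP3-OE plants, of the cultivar Nakdong, carry OsGRP3 under the constitutive rice OsCc1 promoter, and non-transgenic (NT) Nakdong plants are their control. OsGRP3-KD plants, of the cultivar Dongjin, carry an inverted repeat of a fragment of the 3′ untranslated region of OsGRP3 under the OsGOS2 promoter. This construct was made to silence the gene by RNA interference, and NT Dongjin plants are the control. OsGRP3 is a glycine-rich RNA-binding protein, and the study asked which transcripts change when its level is raised or lowered. The labels do not say whether the libraries of a group came from separate plants or lines, so the p-values below measure only the spread between these libraries, which may be technical. Replicates differed by more than sampling noise in every group, since the chi-square between them, divided by its degrees of freedom, was between 3.94 and 23.97.

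The libraries held between 25836946 and 38940899 estimated counts. OsGRP3 itself (Os03g0670700) had 1250 and 1171 CPM (counts scaled to library size with edgeR's TMM factors) in NT Nakdong, 1527 and 1928 CPM in OsGRP3-OE, 399.9 and 403 CPM in NT Dongjin, and 345 and 325 CPM in OsGRP3-KD. The log2 change was 0.51 (SE 0.12, adjusted p = 0.0666) in OsGRP3-OE and -0.26 (adjusted p = 0.0761) in OsGRP3-KD by edgeR's quasi-likelihood test, so neither change passed the threshold, although the libraries of each contrast did not overlap. The study reported larger changes of OsGRP3 in both lines, by sequencing and by qRT-PCR. Reads from the inverted repeat cannot be told apart from those of the gene's own 3′ untranslated region. Against NT Nakdong, of the other cultivar, the log2 difference of OsGRP3 was -1.85 in OsGRP3-KD (adjusted p = 7.02e-05, edgeR). It was -1.59 in NT Dongjin (adjusted p = 5.49e-06, edgeR). The NT Dongjin libraries stood apart from the 6 others. Coverage was compared in 5735 genes with a single transcript of at least 3 exons. These also had a transcript coverage of at least 5, and both end exons covered, in every library. Their median log2 ratio of coverage in the 5′-most to the 3′-most exon was -0.76 and -0.69 in NT Dongjin. It was between -2.62 and -2.24 in the other libraries, so reads were spread more evenly along transcripts in NT Dongjin. The markers also differed. Summed CPM was 10110 and 9767 for the small subunits of Rubisco, a mesophyll marker, against 35360 to 44330 in the other 6 libraries. It was 70.8 and 66.1 against 625.8 to 860.2 for expansins, which loosen walls of expanding cells, 276 and 273.6 against 82.3 to 132.3 for B-type cyclins of dividing cells, and 1913 and 1985 against 2477 to 2760 for histones. The knockdown comparison is therefore also given with NT Nakdong in place of NT Dongjin for the members and for the related genes, and the part of these differences in the results was not tested.

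The members together took 0.670% and 0.651% of all counts in NT Nakdong, 0.813% and 0.689% in OsGRP3-OE, 0.320% and 0.330% in NT Dongjin, and 0.704% and 0.710% in OsGRP3-KD. Summed over the members, NT Nakdong had 6691 and 6544 CPM, OsGRP3-OE 8548 and 6912 CPM, NT Dongjin 3107 and 3225 CPM, and OsGRP3-KD 6824 and 7310 CPM. The NT Dongjin libraries thus held the lowest share of organellar ribosomal protein transcripts, and OsGRP3-OE replicate 1 the highest. In bulk leaf RNA, fewer cells of a type and less RNA per cell cannot be told apart.

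Levels among the members spanned more than 3 orders of magnitude on the FPKM scale, which corrects for transcript length and library size. A mean of 50 FPKM over all libraries separated 28 members at or above it from 32 below it, a split chosen after the values were seen and used only to describe. The 28 higher members held between 90.9% and 95.3% of the members' summed CPM in every library. PSRP1 (Os03g0856500), whose spinach homologue resembles a bacterial factor that puts ribosomes into hibernation, had the highest mean at 967 FPKM. It was followed by L31 (Os01g0633000) at 404 FPKM, L27 (Os01g0924000) at 334 FPKM, L18 (Os03g0828100) at 279 FPKM, L28 (Os05g0101400) at 274 FPKM, S17 (Os04g0691600) at 267 FPKM, S13 (Os03g0704000) at 235 FPKM and L1 (Os05g0388500) at 225 FPKM. PSRP1 was highest in all 8 libraries, but neighbours further down changed places with the group: L31 and L27 had 430 ± 29.0 and 362 ± 18.0 FPKM (SD, n = 2) in NT Nakdong but 190.2 ± 2.04 and 195 ± 0.147 FPKM in NT Dongjin, where L18 was at 29.2 ± 0.493 FPKM and so far below L28 at 135 ± 5.45 FPKM.

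**Figure D1:**
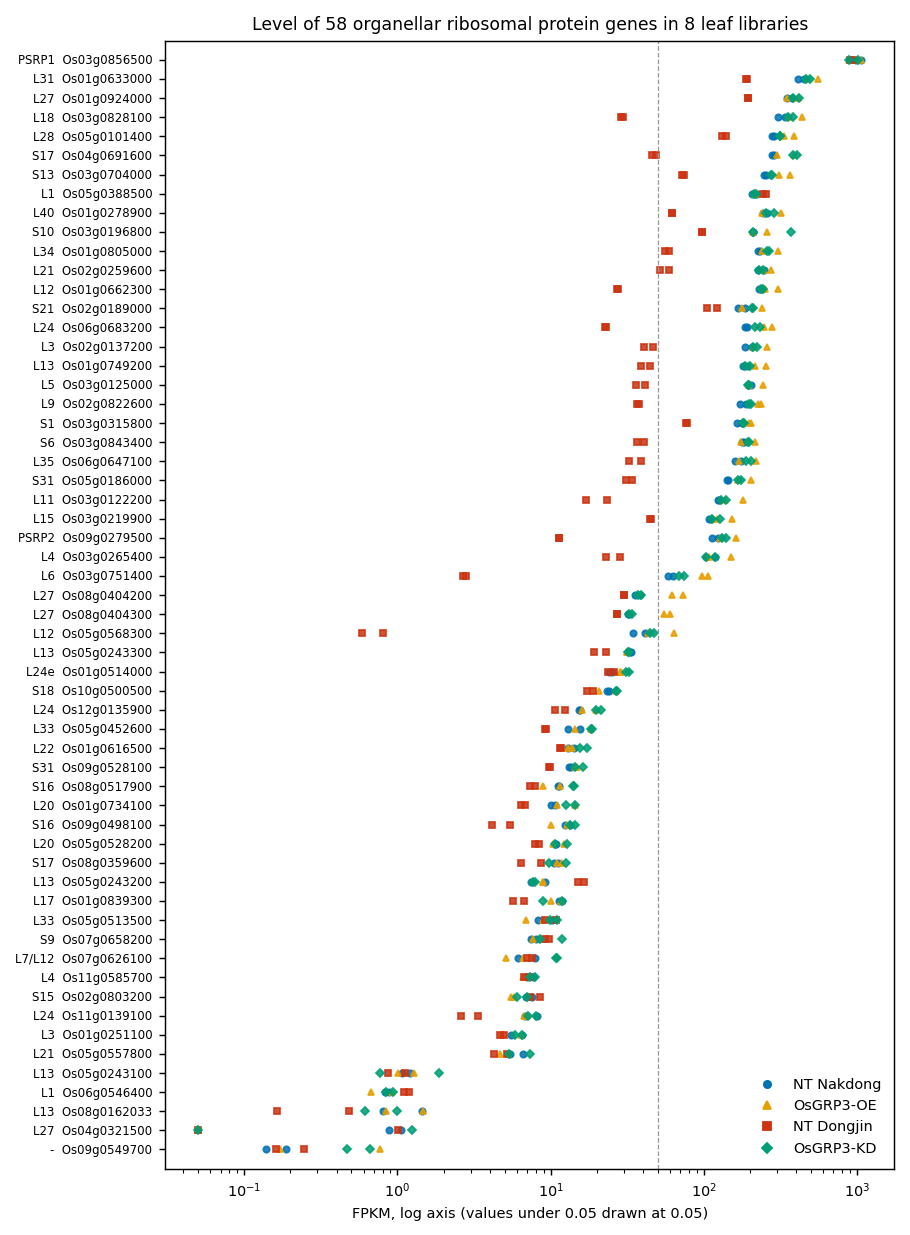
FPKM (log axis) of the 58 tested organellar ribosomal protein genes, 1 point per library, ordered by mean level, with values under 0.05 drawn at 0.05 and a dashed line at 50 FPKM. Red squares (NT Dongjin) lie to the left of the other groups for nearly all members above the dashed line, the exceptions being PSRP1 and L1 (Os05g0388500). Below it they lie much nearer to the other groups for most members, but L12 (Os05g0568300) has the widest gap of all.

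At the other end, the genes described as S7 (Os09g0110750, chromosome 9, 966611 to 966907, 297 nt) and L16 (Os11g0269100, chromosome 11, 9306923 to 9307333, 411 nt) had 0 counts in all 8 libraries. In plants both proteins are normally encoded by the plastid genome, and these are short loci of 1 exon on nuclear chromosomes of IRGSP-1.0. A count of 0 allows up to 3 counts, or between 0.0774 and 0.113 CPM depending on the library, and this covers counting error only. The other 58 members passed the filter on low counts and were tested among 24383 genes. The longest transcript of a member measured between 297 and 3788 nt with a median of 849.5 nt, and 18 members had more than 1 annotated transcript.

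Overexpression of OsGRP3 went with small differences among the members. Against NT Nakdong, 4 of 58 members rose in OsGRP3-OE at an adjusted p under 0.05 by edgeR's quasi-likelihood test, where 1.04% of all tested genes rose. None of the 58 fell, against 1.30% of all genes. At an unadjusted p under 0.05, 19 members were higher and 2 lower by edgeR, where 6.83% of all genes were higher and 7.25% lower. None changed by 2-fold in either direction past the adjusted threshold, where 0.619% of all genes rose and 0.853% fell by that size, and 1 was lower by that size at an unadjusted p under 0.05. DESeq2 called 8 members higher and 0 lower. The members' median log2 change was 0.20, beside 0.0 for all genes, and 44 members had a positive and 14 a negative log2 change, while 12188 of all 24383 genes had a positive one. Without OsGRP3-OE replicate 1 the members' median was 0.10, and without OsGRP3-OE replicate 2 it was 0.28. The libraries of these groups did not overlap, with OsGRP3-OE the higher, in 31 of 58 members and in 22.0% of all genes. Of the 58 tested members 42 belong to the 50S subunit, and so do all 4 that rose. The count depended on single libraries: it was 14 without OsGRP3-OE replicate 2, 3 without OsGRP3-OE replicate 1, 2 without NT Nakdong replicate 1 and 1 without NT Nakdong replicate 2.

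L27 lies near the peptidyl transferase centre of the large subunit. A pair of adjacent L27 genes on chromosome 8, 1864 bp apart on the same strand, showed the largest changes of the members that passed. Os08g0404200 (19304751 to 19305527) had 17.4 and 16.2 CPM in NT Nakdong, 29.5 and 33.5 CPM in OsGRP3-OE, 13.4 and 13.4 CPM in NT Dongjin, and 16.3 and 18.2 CPM in OsGRP3-KD. The OsGRP3-OE libraries were above all 6 others. It rose 1.88-fold (log2 0.91, SE 0.11, adjusted p = 0.00295, edgeR), and without NT Nakdong replicate 2 the adjusted p was 0.0604. Its neighbour Os08g0404300 (19307392 to 19310989) had 32.3 and 31.8 CPM in NT Nakdong, 56.9 and 59.3 CPM in OsGRP3-OE, 26.4 and 26.2 CPM in NT Dongjin, and 31.3 and 34.4 CPM in OsGRP3-KD. Here too the OsGRP3-OE libraries did not overlap with any other library. It rose 1.81-fold (log2 0.86, SE 0.09, adjusted p = 0.00106, edgeR), and its adjusted p was at most 0.0284 over 14 alternatives. How reads shared with other L27 copies were assigned is not given in the sources used here, so the values of both genes are uncertain to that extent.

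L6, which sits near the site where translation factors bind, and L24, an early assembly protein of the large subunit, were the other members that rose. L6 (Os03g0751400, chromosome 3, 30981065 to 30984498) had 57.1 and 53.2 CPM in NT Nakdong and 101.9 and 88.5 CPM in OsGRP3-OE. That is a 1.73-fold rise (log2 0.79, SE 0.10, adjusted p = 0.00428, edgeR), and the adjusted p was 0.0523 without NT Nakdong replicate 1 and 0.0824 without NT Nakdong replicate 2. L24 (Os06g0683200, chromosome 6, 28472626 to 28474779) had 169.1 and 166.5 CPM in NT Nakdong and 258.5 and 219 CPM in OsGRP3-OE. The groups did not overlap for either gene, and L24 rose 1.42-fold (log2 0.51, SE 0.10, adjusted p = 0.0410, edgeR). The L24 call was lost in 5 of 14 alternatives, with adjusted p-values up to 0.302, that of 0.302 being without NT Nakdong replicate 2.

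**Figure D2:**
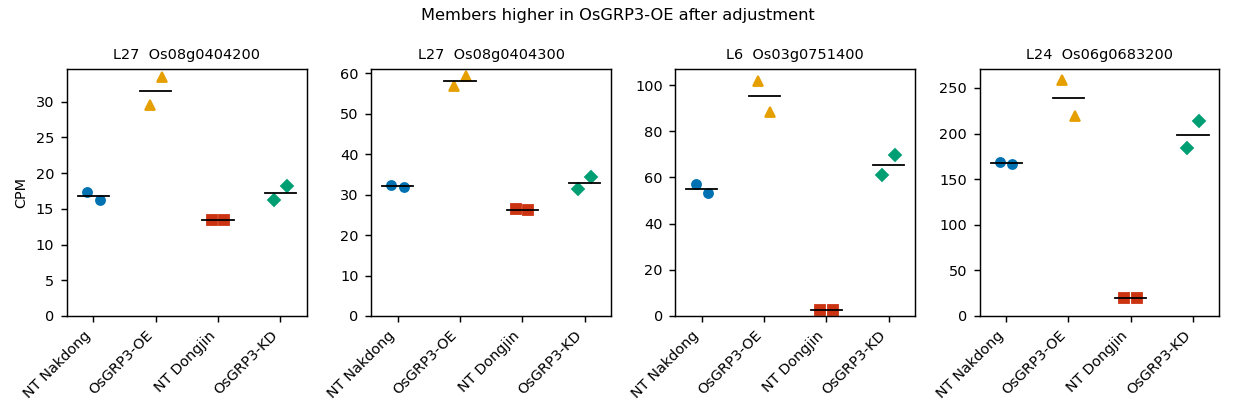
CPM (linear axis from 0) of the 4 members that rose in OsGRP3-OE, 1 point per library with the group mean as a bar. In each panel the OsGRP3-OE points lie above those of NT Nakdong, and for L6 and L24 the NT Dongjin libraries lie far below all others.

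S13, which contacts tRNA in the small subunit, was next by p but did not pass. S13 (Os03g0704000) had 212 and 204.7 CPM in NT Nakdong and 320.6 and 258.8 CPM in OsGRP3-OE, a log2 difference of 0.48 (SE 0.10, adjusted p = 0.0615, edgeR). The 5 members with a negative log2 difference and the smallest p-values did not pass either. S15 (Os02g0803200), an early 16S rRNA-binding protein, had 13.5 and 12.4 CPM in NT Nakdong against 10.5 and 10.4 CPM in OsGRP3-OE, a log2 difference of -0.31 (adjusted p = 0.320, edgeR). Near the same level, S16 (Os09g0498100) had 9.08 and 8.49 CPM against 7.18 and 8.74 CPM, with overlapping groups. The log2 differences of L7/L12 (Os07g0626100), L21 (Os05g0557800) and S16 were -0.23, -0.25 and -0.14, with adjusted p-values of 0.669, 0.670 and 0.794.

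The remaining gene of that kind was a further L27 copy, Os04g0321500 (chromosome 4, 14804703 to 14805459), with 13 and 19 counts in NT Nakdong, 0 and 0 in OsGRP3-OE, 0 and 16 in NT Dongjin, and 18 and 0 in OsGRP3-KD. Its counts separated the Nakdong groups, while in both Dongjin groups 1 library was at 0 and the other was not. Its transcript has the same length, 438 nt, and the same number of exons, 3, as that of Os08g0404200. It was the member lower by 2-fold at an unadjusted p under 0.05 (adjusted p = 0.342, edgeR), and its fitted fold change is no bound.

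In the knockdown comparison about as many members rose by 2-fold or more as did not. Against NT Dongjin, 44 of 58 members rose in OsGRP3-KD at an adjusted p under 0.05 by edgeR, where 35.1% of all tested genes rose, and 1 fell, where 27.8% of all genes fell. By 2-fold, 30 members rose, against 23.8% of all genes. The members' median log2 change was 1.12, beside 0.14 for all genes. Both OsGRP3-KD libraries lay above both NT Dongjin libraries in 49 of 58 members, against 45.4% of all genes. This change cannot be told apart from whatever set the NT Dongjin libraries apart.

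In the fit of all 8 libraries, no member passed with NT Nakdong in place of NT Dongjin. When only the 4 libraries of that comparison were fitted, 1 member rose. Between OsGRP3-KD and NT Nakdong, which differ in cultivar, 0 of 58 members rose or fell by edgeR, where 8.58% of all genes did. At an unadjusted p under 0.05 edgeR had 10 members higher and 0 lower, where 11.7% of all genes were higher and 12.9% lower, and DESeq2 called 1 higher and 0 lower after adjustment. The members' median log2 difference was 0.13, beside 0.01 for all genes, and it was 0.13 at or above and 0.11 below a mean of 50 FPKM. Between the NT groups, on the other hand, 42 members were lower and 2 were higher in NT Dongjin than in NT Nakdong, where 35.4% of all genes were lower and 29.2% higher. By 2-fold, 28 were lower, against 24.7% of all genes, and the median was -0.93, beside -0.10 for all genes. Both NT Dongjin libraries lay below all 6 other libraries in 43 of 58 members, against 36.3% of all genes. These comparisons share libraries, and their values are given side by side only.

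**Figure D3:**
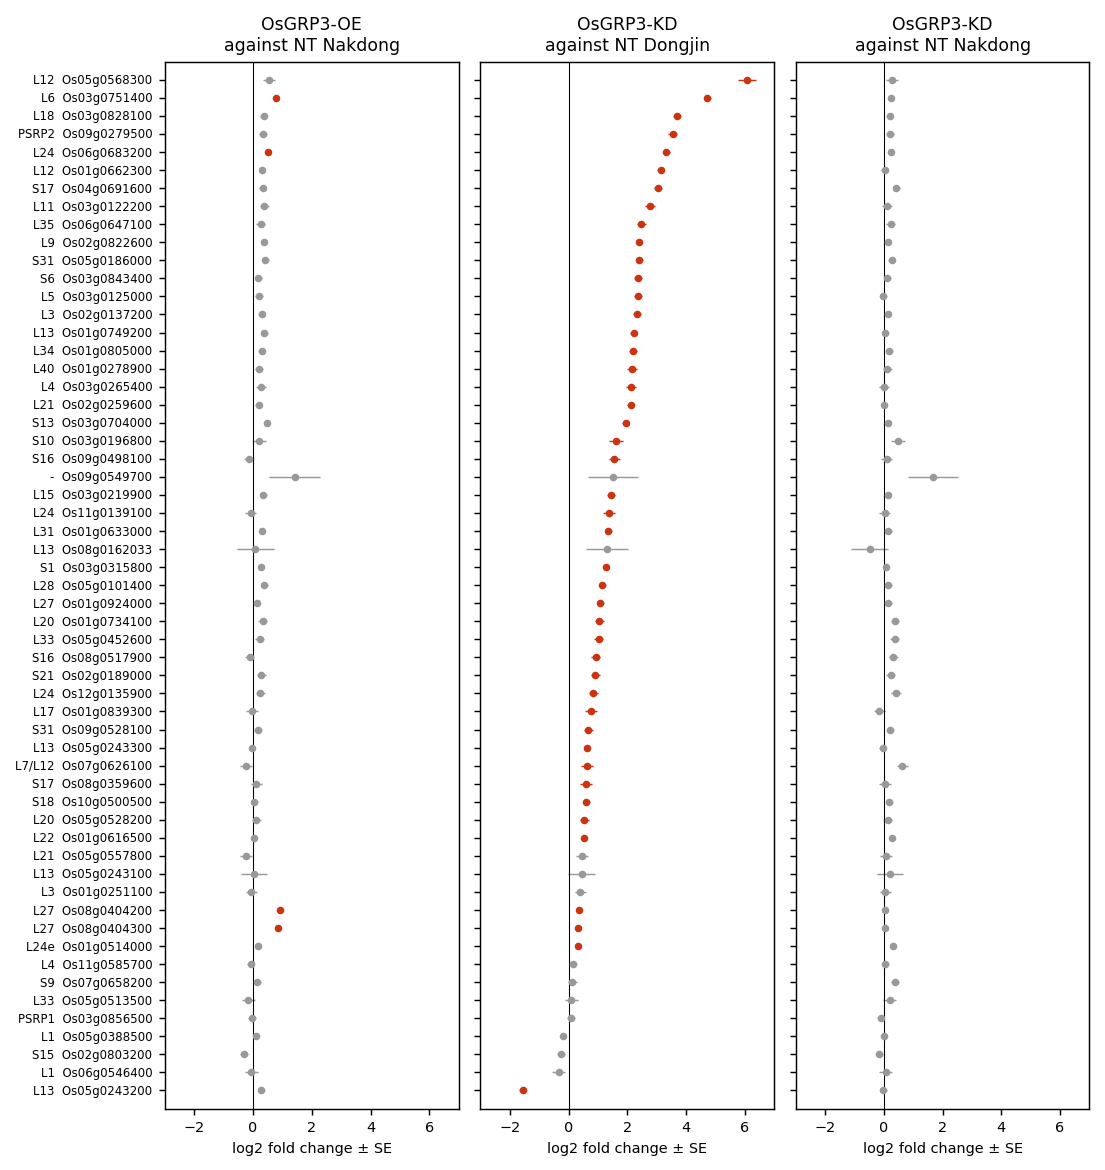
Log2 fold change with its SE for 57 members in 3 comparisons, in the order of the change against NT Dongjin, with members past an adjusted p of 0.05 in red and the others in grey. L27 Os04g0321500 (0 counts in both OsGRP3-OE libraries) is left out. The points of the middle panel reach 6.08, while those of OsGRP3-KD against NT Nakdong have none in red and lie between -0.49 and 1.68, the latter being Os09g0549700, a gene of under 1 CPM.

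The stalk protein L12 recruits the GTPases that drive translation. Its gene Os05g0568300 (chromosome 5, 28299369 to 28300093, 1 exon) differed most. It had 26.0 and 31.4 CPM in NT Nakdong, 50.8 and 32.4 CPM in OsGRP3-OE, 0.602 and 0.434 CPM in NT Dongjin, and 32.6 and 36.7 CPM in OsGRP3-KD, and in counts NT Dongjin had 16 and 15 against 1018 and 989 in OsGRP3-KD. It was all but undetected in NT Dongjin and at like levels in the other 3 groups. The fold change was 67.5 (log2 6.08, SE 0.30, adjusted p = 6.26e-07, edgeR). L12 is also encoded by Os01g0662300 (chromosome 1, 27041773 to 27042644), with 111.7 and 116.4 CPM in NT Nakdong, 157.1 and 123.0 CPM in OsGRP3-OE, 12.98 and 13.2 CPM in NT Dongjin, and 114.4 and 117.7 CPM in OsGRP3-KD. Its fold change was 8.85 (log2 3.15, SE 0.12, adjusted p = 2.21e-07, edgeR), so both genes were lowest in NT Dongjin by a wide margin. The gene described as L7/L12 (Os07g0626100) behaved otherwise, with 5.47 and 7.15 CPM in NT Nakdong, 6.18 and 4.57 CPM in OsGRP3-OE, 6.10 and 6.63 CPM in NT Dongjin, and 9.42 and 10.1 CPM in OsGRP3-KD. Its NT Dongjin libraries lay among those of Nakdong, and it rose 1.54-fold in OsGRP3-KD (log2 0.62, adjusted p = 0.0237, edgeR), but in counts of its 3′-most exon the log2 difference was 0.03 (adjusted p = 0.911). L11 (Os03g0122200), which forms the base of this stalk, had 125.4 and 129.2 CPM in NT Nakdong, 192.8 and 140.2 CPM in OsGRP3-OE, 23.2 and 17.1 CPM in NT Dongjin, and 138.7 and 136.5 CPM in OsGRP3-KD, a 6.84-fold rise in OsGRP3-KD (log2 2.77, adjusted p = 2.50e-06, edgeR).

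L6 had 2.52 and 2.40 CPM in NT Dongjin and 60.9 and 69.6 CPM in OsGRP3-KD. With 26.5-fold (log2 4.73, SE 0.13, adjusted p = 7.92e-08, edgeR) it had the smallest adjusted p of the members, and its counts in NT Dongjin were 67 and 83. L18 (chromosome 3, 34785473 to 34787245), which binds 5S rRNA in the central protuberance, had 239.8 and 216.4 CPM in NT Nakdong, 329.5 and 256.9 CPM in OsGRP3-OE, 20.6 and 20.1 CPM in NT Dongjin, and 245 and 278.1 CPM in OsGRP3-KD. Its rise in OsGRP3-KD was 12.9-fold (log2 3.69, SE 0.14, adjusted p = 2.08e-07, edgeR), and L5 (Os03g0125000), the other 5S rRNA-binding member, rose 5.12-fold (log2 2.36, adjusted p = 1.22e-06, edgeR). L24 had 19.9 and 19.7 CPM in NT Dongjin and 184.5 and 213.3 CPM in OsGRP3-KD, a 10.1-fold rise (log2 3.33, SE 0.11, adjusted p = 1.48e-07, edgeR). For all of these the NT Dongjin libraries lay far below all 6 others.

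Among the 30S members, 13 of 16 tested rose in OsGRP3-KD against NT Dongjin, and among the 50S members 31 of 42 rose, where 35.1% of all genes rose. PSRP2 (Os09g0279500, chromosome 9, 5870982 to 5873188), which in spinach carries RNA-recognition motifs, had 110.9 and 124.2 CPM in NT Nakdong, 169.5 and 125.8 CPM in OsGRP3-OE, 11.2 and 11.8 CPM in NT Dongjin, and 127.6 and 142.1 CPM in OsGRP3-KD. It rose 11.7-fold (log2 3.55, SE 0.15, adjusted p = 3.70e-07, edgeR). Its transcript of 982 nt held 95.1% of the gene's coverage in NT Dongjin replicate 1 and 2.27% in replicate 2, where the transcript of 1028 nt held 95.7%, so the division between these alike transcripts was unstable while the gene's sum was not. S17 (Os04g0691600, chromosome 4, 35381557 to 35382214), an early binder of 16S rRNA, had 180.3 and 184.6 CPM in NT Nakdong, 262.5 and 193.1 CPM in OsGRP3-OE, 28.6 and 30.7 CPM in NT Dongjin, and 234.7 and 256.1 CPM in OsGRP3-KD. It rose 8.28-fold (log2 3.05, SE 0.14, adjusted p = 5.36e-07, edgeR). S1 (Os03g0315800), which binds mRNA, had 261.4 and 241.3 CPM in NT Nakdong, 108.7 and 111.2 CPM in NT Dongjin, and 254.6 and 276 CPM in OsGRP3-KD, and rose 2.41-fold (log2 1.27, adjusted p = 2.97e-06, edgeR). S10 (Os03g0196800) rose 3.07-fold (log2 1.62, adjusted p = 4.97e-04, edgeR) with replicates far apart in OsGRP3-KD, at 163.7 and 308.3 CPM against 76.3 and 77.5 CPM in NT Dongjin.

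By the median, the difference from NT Dongjin was larger in the members of high level. Of the 28 members at or above 50 FPKM, 26 rose in OsGRP3-KD, 25 of them by 2-fold, with a median log2 change of 2.22 over all 28. Of the 30 tested members below 50 FPKM, 18 rose and 1 fell, 5 of the rises being 2-fold, with a median of 0.57. L12 (Os05g0568300), with the largest change, is among the latter with a mean of 34.7 FPKM. Descriptions that name the chloroplast, plastid or cyanelle covered 23 tested members, of which 21 rose with a median of 2.12, and among the 35 others 23 rose and 1 fell with a median of 0.78. Of all tested genes, 35.1% rose, 23.8% by 2-fold, and 27.8% fell. Other genes of like level were not set beside the members. Across the 58 tested members, Spearman's rho between mean FPKM in the 6 libraries without NT Dongjin and the log2 change against NT Dongjin was 0.554. The rho between the length of the longest transcript and this change was -0.30. These are descriptions across genes that share libraries and depth. In the OsGRP3-OE comparison the median log2 change was 0.29 at or above 50 FPKM, where 27 of 28 members had a positive change, and 0.04 below it. Without OsGRP3-OE replicate 1, the median at or above 50 FPKM was 0.10 with 22 of 28 positive, and without OsGRP3-OE replicate 2 it was 0.48 with 28 of 28 positive, so its size rested on replicate 1.

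**Figure D4:**
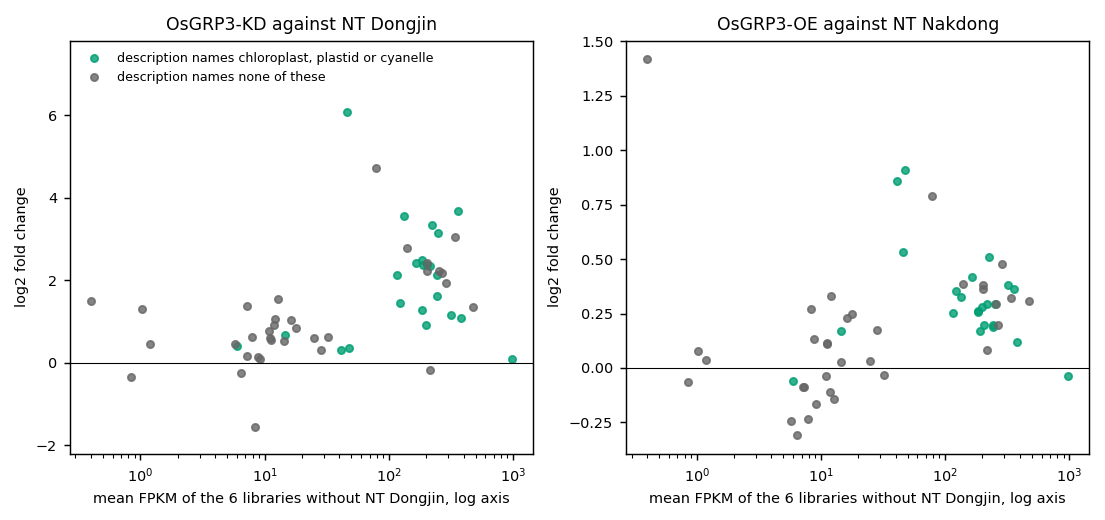
Log2 fold change of 57 members (L27 Os04g0321500 left out) against their mean FPKM in the 6 libraries other than NT Dongjin (log axis), in green where the description names chloroplast, plastid or cyanelle. Against NT Dongjin (left) most members above 100 FPKM lie between 1 and 4 and most below 30 FPKM lie under 1.5, and in OsGRP3-OE (right) the values above 100 FPKM lie between -0.04 and 0.51.

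The members of high level that differed from this were PSRP1 and L1. PSRP1 (chromosome 3, 36132354 to 36134532) had 1465 and 1359 CPM in NT Nakdong, 1534 and 1216 CPM in OsGRP3-OE, 1203 and 1263 CPM in NT Dongjin, and 1356 and 1257 CPM in OsGRP3-KD. The OsGRP3-KD and NT Dongjin libraries overlapped, and the log2 difference of OsGRP3-KD from NT Dongjin was 0.08 (SE 0.12, adjusted p = 0.565, edgeR). NT Dongjin lay below NT Nakdong by 0.20 on the log2 scale without passing (adjusted p = 0.182, edgeR). L1, whose stalk helps spent tRNA leave the ribosome, had 332.4 and 311.4 CPM in NT Nakdong, 342.8 and 338.4 CPM in OsGRP3-OE, 358.5 and 377 CPM in NT Dongjin, and 321.1 and 326.9 CPM in OsGRP3-KD from Os05g0388500 (chromosome 5, 18789640 to 18793642). NT Dongjin was here the highest group rather than the lowest. The log2 difference of OsGRP3-KD from NT Dongjin was -0.18 (SE 0.08, adjusted p = 0.0608, edgeR), and NT Dongjin was higher than NT Nakdong by 0.19 (adjusted p = 0.0496, edgeR). Of the other most abundant members, L31 rose 2.57-fold, L28 2.23-fold, L27 (Os01g0924000) 2.12-fold and S13 3.84-fold in OsGRP3-KD against NT Dongjin, all with adjusted p-values of at most 6.62e-05 by edgeR.

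The descriptions give the same protein number to 33 members in 13 sets. In 10 sets exactly 1 copy was at or above 50 FPKM, and in 9 of these that copy had a larger log2 change against NT Dongjin than each of the copies of lower level, the exception being L12. The sign was kept in this count, so the 9 include L1, where neither copy rose. There the log2 differences were -0.18 for the high copy and -0.34 for the low one, and neither passed. In the sets for L20, L33 and S16 all copies were below 50 FPKM. The descriptions name the chloroplast for both copies of L3 and both of S31. They also name it for the L12 genes Os01g0662300 and Os05g0568300 and the L27 genes Os01g0924000, Os08g0404200 and Os08g0404300. In the L21 set, Os05g0557800 is annotated as mitochondrial and Os02g0259600 as chloroplastic. For the other copies and sets, whether the copies serve the same organelle is not given.

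The L21 pair shows the contrast. The chloroplast copy Os02g0259600 had 239.7 and 220.2 CPM in NT Nakdong, 281.8 and 241.7 CPM in OsGRP3-OE, 49.2 and 56.0 CPM in NT Dongjin, and 215.1 and 242.1 CPM in OsGRP3-KD, and rose 4.34-fold in OsGRP3-KD (log2 2.12, adjusted p = 1.03e-06, edgeR). The mitochondrial copy had 8.65 and 7.07 CPM, 6.35 and 6.89 CPM, 6.59 and 5.47 CPM, and 6.76 and 9.84 CPM in the same order of groups, a log2 difference of 0.46 (adjusted p = 0.0908, edgeR). Only the chloroplast copy thus separated NT Dongjin from the rest. For L4, which lines the exit tunnel for the new protein, Os03g0265400 rose by 2.13 on the log2 scale (adjusted p = 1.26e-05, edgeR) while Os11g0585700 had between 8.24 and 9.71 CPM in all libraries and a log2 difference of 0.16 (adjusted p = 0.310, edgeR). For L3, an early assembly protein, Os02g0137200 rose by 2.35 on the log2 scale, and Os01g0251100 differed by 0.40 (adjusted p = 0.0947, edgeR).

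Other sets differed in degree. For L24, the log2 rise was 3.33 for Os06g0683200, 1.38 for Os11g0139100 and 0.85 for Os12g0135900, the latter pair having levels between 2.23 and 10.8 CPM. For S17 it was 3.05 for Os04g0691600 and 0.61 for Os08g0359600, and for S31 it was 2.41 for Os05g0186000 and 0.68 for Os09g0528100, all past the adjusted threshold by edgeR. In counts of the 3′-most exon the copies of lower level did not pass in these sets, with the exception of Os11g0139100, the log2 differences being 0.55 for Os12g0135900 (adjusted p = 0.129), 0.11 for Os08g0359600 (adjusted p = 0.708) and 0.09 for Os09g0528100 (adjusted p = 0.605). The L27 set had 1.08 for Os01g0924000, 0.36 for Os08g0404200 and 0.32 for Os08g0404300, which passed as well, the latter pair being the genes that had risen in OsGRP3-OE. In the sets without a copy of high level, the log2 changes lay between 0.10 and 1.56: S16 rose by 1.56 (Os09g0498100) and 0.92 (Os08g0517900) and L20 by 1.05 (Os01g0734100) and 0.54 (Os05g0528200) on the log2 scale, and L33 rose by 1.03 for Os05g0452600 and differed by 0.10 for Os05g0513500 (adjusted p = 0.729, edgeR). The low copy of L1, Os06g0546400, had between 2.66 and 4.34 CPM and a log2 difference of -0.34 (adjusted p = 0.229, edgeR).

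**Figure D5:**
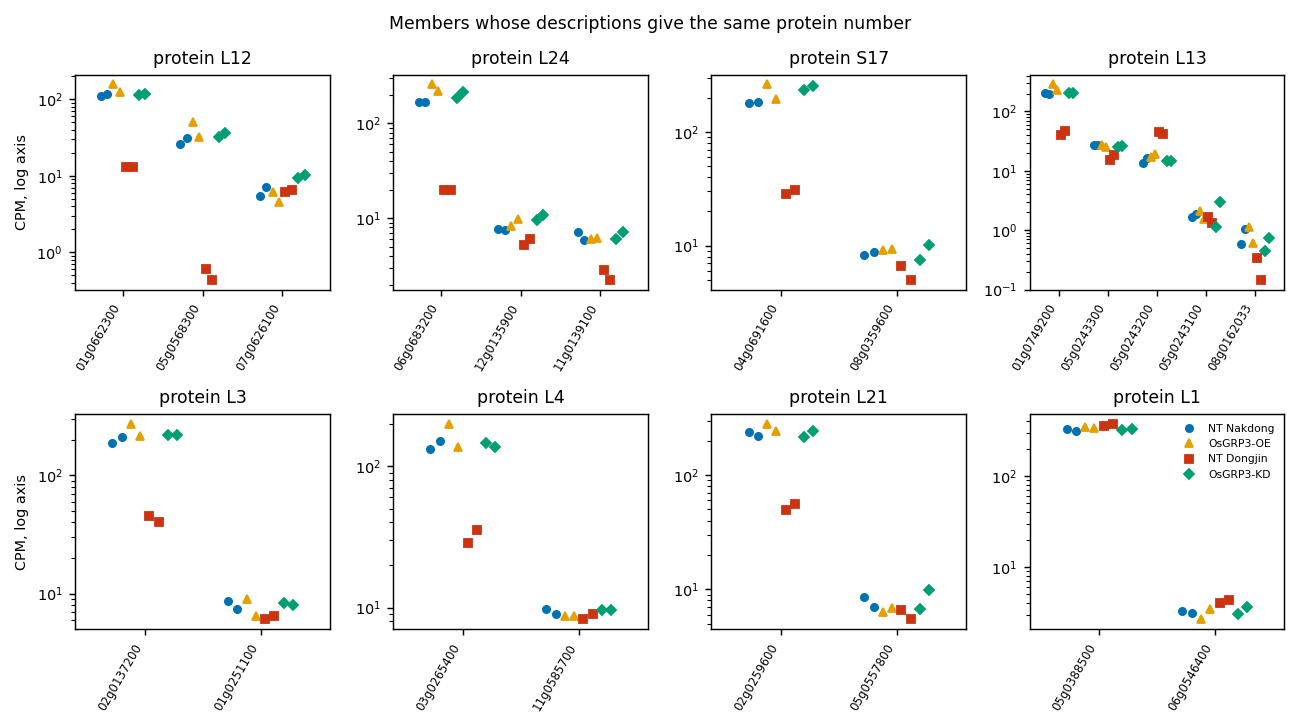
CPM (log axis, 1 point per library) of members that share a protein number, in 8 of the 13 sets, with the Os prefix of the gene names left out. In the sets for L3, L4, L21, L24, S17 and L13 the copy of highest level has NT Dongjin (red squares) well below the other groups and the copies of lower level show less separation, in the L12 set Os05g0568300 departs furthest, and in the L1 set NT Dongjin is the highest group.

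The L13 set has 5 genes, 3 of them next to each other on chromosome 5 with gaps of 953 and 1103 bp. L13 takes part in the early assembly of the large subunit. Os01g0749200 on chromosome 1 had the highest level, with 203.5 and 193.6 CPM in NT Nakdong, 286.7 and 230.2 CPM in OsGRP3-OE, 40.8 and 46.6 CPM in NT Dongjin, and 206.9 and 203.2 CPM in OsGRP3-KD, and rose 4.69-fold (log2 2.23, adjusted p = 9.71e-07, edgeR). Os05g0243200 (chromosome 5, 8692457 to 8696463) was the only member that fell in OsGRP3-KD against NT Dongjin. It had 13.8 and 16.3 CPM in NT Nakdong, 17.1 and 19.1 CPM in OsGRP3-OE, 45.8 and 41.2 CPM in NT Dongjin, and 14.6 and 14.8 CPM in OsGRP3-KD. NT Dongjin had a mean of 43.5 CPM against 14.7 to 18.1 CPM in the other groups. The change in OsGRP3-KD was 2.96-fold (log2 -1.56, SE 0.12, adjusted p = 6.82e-06, edgeR). On the FPKM scale the gap was smaller, with means of 15.75 in NT Dongjin and 7.77 to 8.97 in the other groups. This gene has transcripts of 1076 and 3788 nt, and the longer one held 61.7% and 59.7% of the gene's coverage in NT Dongjin and between 22.9% and 35.9% in the other 6 libraries. Its neighbour Os05g0243300 rose by 0.63 on the log2 scale (adjusted p = 9.44e-04, edgeR). The other neighbour, Os05g0243100, had between 1.15 and 2.97 CPM and Os08g0162033 between 0.145 and 1.14 CPM, and neither passed in this comparison, with log2 differences of 0.44 and 1.31.

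The changes in the OsGRP3-OE and OsGRP3-KD contrasts differed for most members. The OsGRP3-OE change minus the OsGRP3-KD change was below 0 at an adjusted p under 0.05 for 37 members and above 0 for 3 by edgeR, against 29.2% and 21.8% of all genes, with a median of -0.99 beside -0.15 for all genes. The members with the smallest adjusted p were L6 (-3.94, adjusted p = 9.88e-07), L24 (-2.82, adjusted p = 2.61e-06), L18 (-3.32, adjusted p = 3.07e-06), L12 Os01g0662300 (-2.85, adjusted p = 3.62e-06) and L9 (Os02g0822600; -2.05, adjusted p = 5.18e-06). L9, which binds near the L1 stalk, had 166.9 and 150.5 CPM in NT Nakdong, 214.4 and 194.2 CPM in OsGRP3-OE, 33.2 and 32.0 CPM in NT Dongjin, and 167.9 and 179.1 CPM in OsGRP3-KD. The OsGRP3-KD term carried most of each difference, and NT Dongjin enters all of them.

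Coverage along transcripts was examined in the members as well. The same conditions on exons and coverage were met by 22 members. Their median log2 ratio of the 5′-most to the 3′-most exon was -1.03 and -0.92 in NT Dongjin. It was between -1.98 and -1.50 in the other libraries, a smaller gap than over all genes that met the conditions. With counts of the 3′-most exon only, 33 of the 44 members that had risen in OsGRP3-KD against NT Dongjin passed again, and 25 members rose by 2-fold. The members' median log2 change was then 0.84, beside 0.09 over 23179 genes, of which 28.6% rose. The median was 1.92 over the 28 members at or above 50 FPKM, beside 2.22 in counts of whole genes, and 0.27 over 29 members below it, beside 0.57. The 11 calls that were lost were all of members below 50 FPKM. At or above it, L31 changed by 0.84 instead of 1.36, L28 by 0.70 instead of 1.16 and S21 (Os02g0189000) by 0.47 instead of 0.91 on the log2 scale. L12 (Os05g0568300) changed by 5.49, L6 by 4.38, PSRP2 by 3.56 and L24 by 3.16 on the log2 scale in these counts. The adjacent L27 genes on chromosome 8 did not pass in these counts, with log2 differences of -0.06 and 0.05.

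Genes of related function were counted in the same comparison of OsGRP3-KD with NT Dongjin by edgeR. Of 162 tested 40S and 60S proteins of the cytosolic ribosome, 153 rose and 2 fell, with a median log2 change of 1.12, so the median of the organellar members was not larger than that of the cytosolic ones. In OsGRP3-OE, 6 of these 162 rose, where 1.04% of all genes rose, and their median was 0.03 beside 0.20 for the organellar members. Of 9 other organellar ribosomal proteins, whose descriptions name neither subunit, 6 rose and 2 fell (median 0.76). Of 24 bacterial-type translation factors, which work on the same ribosomes, 8 rose and 9 fell (median 0.03), and their summed CPM was 1324 and 1323 in NT Dongjin, within the 1190 to 1420 of the other libraries. Of 6 ribosome assembly and rRNA maturation factors, 5 rose (median 1.49). Of 13 plastid transcription genes, 6 rose and 3 fell (median 0.27), and of 55 aminoacyl-tRNA synthetases, 16 rose and 22 fell (median 0.00). Photosystem and light-harvesting genes had 32 rises and 2 falls among 47 (median 0.75). Among the markers, 4 of 4 Rubisco small subunit genes rose, of 47 histone genes 37 rose and 1 fell, of 25 expansin genes 18 rose and 1 fell, and of 8 B-type cyclin genes 4 rose and 3 fell, although the summed CPM of the cyclins was lower in OsGRP3-KD, at 132.3 and 126.9, than in NT Dongjin. Over all genes, 35.1% rose and 27.8% fell in this comparison. In OsGRP3-OE, 3 of the 8 B-type cyclin genes fell, where 1.30% of all genes fell.

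With NT Nakdong in place of NT Dongjin, the medians of the same lists lay between -0.62 and 0.27. Of the 162 cytosolic ribosomal proteins 6 rose and 1 fell, where 8.58% of all genes rose or fell. Their median log2 difference was 0.04. The medians were 0.27 for the other organellar ribosomal proteins, -0.01 for the bacterial-type translation factors, 0.06 for the assembly and maturation factors, -0.02 for plastid transcription, -0.02 for the aminoacyl-tRNA synthetases and 0.01 for the photosystem genes. Among the markers they were -0.03 for Rubisco small subunits, -0.05 for histones, 0.05 for B-type cyclins and -0.62 for the 25 expansins, of which 2 rose and 8 fell.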

How the data were processed

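Total leaf RNA was made into mRNA libraries and sequenced. The authors' notes name HISAT2, Bowtie2, StringTie and the build IRGSP-1.0, the file headers name StringTie 1.3.4d on HISAT alignments, and the paper's methods name TopHat. The deposited gene table holds estimated counts, which the authors made from StringTie coverage, since they equal coverage times transcript length over a read length of 101, rounded up, within 1 count for at least 99.995% of genes. They are already whole and were used as deposited. StringTie also gave the authors' FPKM and TPM values, and TPM was not used. The coverage of exons and transcripts in the deposited files was used as a signal per base.

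Counts were scaled by TMM, filtered with filterByExpr and fitted with edgeR 4.0.16 (R 4.3.3) by the quasi-likelihood method, with a mean per group over all 8 libraries and Benjamini-Hochberg adjustment over 24383 genes. Calls required an adjusted p under 0.05, and 2-fold where stated. Alternatives were the median-of-ratios size factors, DESeq2 1.42.0, no filter, a minimum of 10 counts per library, fits of each comparison's own 4 libraries, a block for replicate number within cultivar, counts of the 3′-most exon, limma 3.58.1 on log2(FPKM + 1) or log2(FPKM + 0.1) with or without a mean FPKM of at least 0.5, and leaving out each replicate. Tables were made with Python 3.11.15 and pandas 2.3.3 and drawn with matplotlib 3.10.9. On simulated data for OsGRP3-OE against NT Nakdong (23692 genes), 69% of 2-fold and 12% of 1.5-fold changes among 200 changed genes were recovered, with 3 unchanged genes called.

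Members given with values in every library were, in OsGRP3-OE against NT Nakdong and OsGRP3-KD against NT Dongjin, up to 8 with the largest rise or fall past the threshold (where fewer than 5 passed in OsGRP3-OE, the 5 with the smallest p), the 5 with the smallest adjusted p in the difference, the 8 of highest mean FPKM, those at 0 in a whole group, and members sharing a protein number. S1, S10 and L5 were named after their values were seen. Related genes and markers were picked by words in the descriptions. The members, lists and rules were chosen with earlier results of these data known. Gene positions are those of the deposited files, on IRGSP-1.0.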

Additional observations from a re-analysis of the deposited data

Results flagged for a closer look

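For 18 of the 23 members that the rule for named members gave, the OsGRP3-OE change minus the OsGRP3-KD change, on the log2 scale, differed from 0 by edgeR's test of the difference, with adjusted p-values of at most 0.0336, and the same test was passed by 51.1% of all genes. L6, L24, L18, L12 (Os01g0662300) and L9 had been named for their small p in this difference. Others had been named for their change in the OsGRP3-OE or OsGRP3-KD comparison, which are the terms of this difference. The 18 of 23 therefore cannot be weighed against the share of all genes. It was negative for 15. The values were -5.54 for L12 (Os05g0568300), -3.94 for L6, -3.32 for L18, -3.22 for PSRP2, -2.85 for L12 (Os01g0662300), -2.82 for L24 (Os06g0683200), -2.73 for S17 (Os04g0691600), -2.39 for L11, -2.05 for L9, -1.70 for S16 (Os09g0498100), -1.47 for S13, -1.05 for L31, -0.96 for L27 (Os01g0924000), -0.85 for L7/L12 and -0.77 for L28. It was positive for L13 (Os05g0243200) at 1.84, L27 (Os08g0404200) at 0.55 and L27 (Os08g0404300) at 0.54. The NT Dongjin libraries enter each of these differences, and their part in them was not tested.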

How the results depend on the processing

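Over 18 alternatives, the medians of the members kept their sign. In OsGRP3-OE against NT Nakdong, 4 members rose, against 8 by DESeq2 and between 1 and 14 with a replicate left out. The replicate numbers did not pair the libraries, since the deviations of same-numbered libraries from their group means correlated at -0.03 for NT Nakdong with OsGRP3-OE, and at -6.0e-04 for NT Dongjin with OsGRP3-KD, and with the number as a replicate block 3 members rose in OsGRP3-OE and 42 in OsGRP3-KD. In OsGRP3-KD against NT Dongjin, 2 members instead of 1 fell with median-of-ratios size factors, with DESeq2 and in each of the 3 limma fits, and the median was 0.93 by both limma fits on log2(FPKM + 1) and 0.84 in counts of the 3′-most exon. Against NT Nakdong, where no member passed, 1 rose in OsGRP3-KD by DESeq2, with no filter, with only the 4 libraries, without OsGRP3-KD replicate 1 (between 0 and 1 over replicates left out) and in 2 limma fits, and 2 rose by limma on log2(FPKM + 1) with the filter. Between the NT groups, 1 member instead of 2 was higher in NT Dongjin with no filter, with at least 10 counts, in counts of the 3′-most exon and with any replicate left out. The median there was -0.80 and -0.74 by limma on log2(FPKM + 1) with and without the filter, -1.08 on log2(FPKM + 0.1), -0.67 in counts of the 3′-most exon, and between -1.02 and -0.92 with a replicate left out. The median difference between both transgenes was -0.71 in counts of the 3′-most exon. The causes of these shifts were not tested. Of the named members, 8 calls were lost and 5 gained over all alternatives, each in the OsGRP3-OE comparison. With 2 libraries per group, the test recovered 12% of simulated 1.5-fold changes in OsGRP3-OE. The simulation gave every gene the same dispersion of 0.0249, so it does not tell which changes were detectable among the members. In the data, L24 (Os06g0683200) passed at 1.42-fold.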
